A study of Caenorhabditis elegans with 2 samples.

Results

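One-sided promoter peaks of VAB-15 are peaks whose summit lay 1 to 1000 bp upstream of annotated protein-coding transcript starts on 1 strand, with no such start on the other strand within 1000 bp. They were chosen by position alone, and 404 of the authors' 990 optimal peaks on genome build ce11 met the rule. Another 229 peaks had starts on both strands within 1000 bp downstream and are called divergent, and 357 peaks lay outside promoters. The series measured binding of VAB-15 by chromatin immunoprecipitation with sequencing (ChIP-seq), in 2 biological replicates of 1 group. The worms were whole larvae of Caenorhabditis elegans strain XIL99, of mixed sex, in the first larval stage (L1) and starved after bleaching; every worm carried a C-terminal GFP-FLAG tag on VAB-15, inserted with CRISPR, and an anti-GFP antibody recovered the chromatin. No untagged strain, other stage or treatment was analysed here, and in whole larvae the cells that gave a peak cannot be told apart.

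VAB-15 belongs to the Msx class of homeodomain proteins and is known in C. elegans for its part in making touch receptor neurons. Homeodomains bind short AT-rich sites with a TAAT core. A gene's promoter is the stretch just upstream of where its transcription starts. Where neighbouring genes point away from each other, a single stretch can serve as promoter of both, so a factor bound there cannot be assigned to one of them by position. In a one-sided promoter the direction of transcription is defined, so distance, strand and base composition can be read relative to 1 gene. Many C. elegans genes are trans-spliced or lie in operons, so an annotated start need not be where transcription begins.

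The 101 bp around the summits of some of the strongest one-sided peaks are shown because they hold the sequences that the results below count. Each is from the WBcel235 reference, the assembly of ce11, written 5' to 3' on the strand of the gene. Capitals mark matches, on either strand and with overlapping matches joined, to the homeodomain core TAATTG or to 1 of 5 GC-rich 6-mers, namely GAGCGC, then AGCGCG, then ACGCGC, then ACGCAG, then GCGCAC. The windows lie at chrII:10563527-10563627 on the minus strand (cdc-48.1), chrIII:3867514-3867614 on the plus strand (rpl-3), chrIII:7854631-7854731 on the plus strand (rpl-35), chrX:5841271-5841371 on the plus strand (puf-9), chrIV:9074389-9074489 on the plus strand (mppb-1) and chrV:9344268-9344368 on the minus strand (tos-1).
cdc-48.1: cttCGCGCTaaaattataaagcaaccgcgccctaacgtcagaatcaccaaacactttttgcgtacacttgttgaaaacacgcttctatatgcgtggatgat
rpl-3: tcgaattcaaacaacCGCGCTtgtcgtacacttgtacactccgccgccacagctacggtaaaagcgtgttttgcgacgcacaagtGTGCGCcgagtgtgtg
rpl-35: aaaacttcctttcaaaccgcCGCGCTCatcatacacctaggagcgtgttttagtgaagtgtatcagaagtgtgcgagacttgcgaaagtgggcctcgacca
puf-9: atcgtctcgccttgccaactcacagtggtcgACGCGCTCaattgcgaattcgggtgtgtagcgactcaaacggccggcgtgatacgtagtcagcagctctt
mppb-1: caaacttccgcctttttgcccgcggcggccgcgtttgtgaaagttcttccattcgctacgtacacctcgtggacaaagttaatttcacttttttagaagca
tos-1: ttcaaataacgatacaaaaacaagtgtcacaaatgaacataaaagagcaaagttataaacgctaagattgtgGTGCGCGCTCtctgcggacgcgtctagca

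Next are 5 of the 10 windows with TAATTG within 10 bp of the summit, as examples, and the window upstream of vab-15, the gene of the profiled factor itself. They lie at chrV:2672757-2672857 on the plus strand (W02G9.3), chrX:11262438-11262538 on the plus strand (C03A3.2), chrII:13908739-13908839 on the plus strand (citk-1), chrV:1383668-1383768 on the minus strand (rga-4), chrX:13974869-13974969 on the plus strand (F48F7.5) and chrX:9846820-9846920 on the plus strand (vab-15).
W02G9.3: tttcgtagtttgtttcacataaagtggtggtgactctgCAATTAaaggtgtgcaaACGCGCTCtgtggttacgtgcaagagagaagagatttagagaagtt
C03A3.2: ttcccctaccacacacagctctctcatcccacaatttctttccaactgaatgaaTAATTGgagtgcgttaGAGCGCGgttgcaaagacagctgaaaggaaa
citk-1: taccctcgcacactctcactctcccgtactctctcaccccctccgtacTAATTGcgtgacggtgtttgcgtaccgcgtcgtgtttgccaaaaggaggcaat
rga-4: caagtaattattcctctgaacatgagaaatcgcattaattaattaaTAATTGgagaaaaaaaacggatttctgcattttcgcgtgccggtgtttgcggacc
F48F7.5: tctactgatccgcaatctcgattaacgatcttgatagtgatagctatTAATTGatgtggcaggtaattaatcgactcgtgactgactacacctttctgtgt
vab-15: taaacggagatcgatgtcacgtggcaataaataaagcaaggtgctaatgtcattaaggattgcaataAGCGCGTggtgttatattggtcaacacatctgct
In W02G9.3 the core stands as CAATTA, its reverse complement, and is followed by a run of GC-rich matches; C03A3.2 holds both kinds as well. The windows of citk-1, rga-4 and F48F7.5 hold TAATTG and no GC-rich 6-mer, and that of vab-15 holds GC-rich matches and no TAATTG. The window of mppb-1 holds neither, as did the windows of 205 of the 404 one-sided peaks (50.7%).

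By rank of signal, one-sided peaks ran through almost the whole optimal set, from 3 to 990, but they did not reach its highest signals. Their signal, which is the authors' own value per peak and was used to describe and rank peaks, ran from 108.2 to 518.2 with a median of 145.6 and quartiles of 120.9 and 185.3. Divergent peaks ran from 108.4 to 1191 with a median of 153.8. The strongest one-sided peak, 38 bp upstream of tub-2, had a signal of 374 in replicate 1 and 143.3 in replicate 2. It had rank 3 in replicate 1 and rank 6 in replicate 2. Upstream of cdc-48.1, an AAA ATPase (p97) gene that serves protein quality control, the replicate signals were 310.2 and 157.7. Its summit lay 170 bp from the start, and it was the strongest one-sided peak of replicate 2.

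Nearly every one of the 20 strongest one-sided peaks was strong in both replicates. They were ranked by the pooled signal of these same replicates, so this is a description. For 19 of them the summit lay among the 990 strongest regions of each replicate list, and replicate ranks of these 19 went no lower than 64. The exception was eel-1, which encodes a HECT-type ubiquitin ligase: the signal was 234.2 in replicate 1, and no region of the replicate 2 list covered the summit. The gene has 3 one-sided peaks, at 369, 595 and 810 bp from the start, and the middle one had signals of 192 and 104 in replicates 1 and 2. By the summit rule, then, the strongest of the 3 was found in replicate 1 alone and the next in both.

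Most members stood high in both replicates, though less firmly in replicate 2. The authors made the optimal set from both replicates, so this standing was partly fixed by that choice and is no independent support. In replicate 1 the member signals ran from 50.38 to 374 with a median of 102.3 (403 members with a region at the summit), and in replicate 2 from 13.85 to 157.7 with a median of 46.97 (398 members). The summit lay among the 990 strongest regions of replicate 1 for 335 members (82.9%), of replicate 2 for 275 (68.1%), and of both for 226 (55.9%, exact Clopper-Pearson 95% interval 50.95 to 60.85), against 54.6% of all optimal peaks. Another 20 members (4.95%) were in neither. Over all optimal peaks the shares were 84.65% for replicate 1, 66.16% for replicate 2 and 3.84% for neither. Divergent peaks were in both at 58.5% (odds ratio one-sided over divergent 0.900, 95% confidence bounds 0.639 and 1.27, p = 0.559 by a two-sided Fisher's exact test). With the upper 50% of these 990 regions per replicate the shares were 30.7% and 40.6% (odds ratio 0.648, 95% confidence bounds 0.456 and 0.922, p = 0.0146 by Fisher's exact test), and with the 2000 strongest they were 82.2% and 76.9% (odds ratio 1.39, p = 0.119 by the exact test). Peaks are the units of these tests, not biological replicates; the sequencing depth is unknown, and intervals cover counting error over peaks only.

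**Figure D1:**
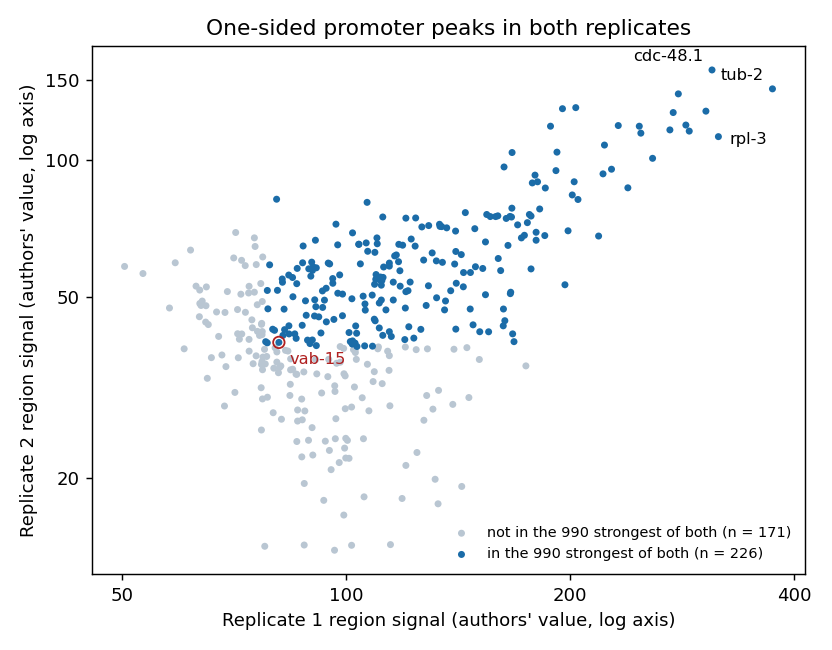
Signal of the region at the summit in replicate 1 (x axis) and replicate 2 (y axis), the authors' value on log axes, for the 397 one-sided promoter peaks with a region in both lists; dark points are the 226 whose summit lay in the 990 strongest regions of both. The strongest peaks, such as tub-2 and cdc-48.1, stand high in both. Low replicate 2 signals, which go down to 13.85, were also found above the replicate 1 upper quartile of 132.2. Examples are best-14 (146.2 in replicate 1 and 30.01 in replicate 2) and C53B4.3 (139.1 and 28.99).

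One-sided promoters held more peaks per Mb than sequence outside promoters and fewer than divergent promoters. They cover 20.68 Mb of the genome and held 19.5 peaks per Mb, against 133.2 per Mb over 1.719 Mb of divergent promoter and 4.58 per Mb elsewhere. Of the 30000 regions of the pooled list, which holds background by construction, 7163 lay in one-sided promoters, and 404 of these were optimal peaks (5.64%, exact 95% interval 5.12 to 6.20). The share was 21.5% of 1067 regions in divergent promoters and 1.64% of 21770 elsewhere, with 3.30% over the whole list. These densities are given as a description, without a test.

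Values on each side of the thresholds of the rule are likewise given without a test. The member farthest from its start was M01F1.9, at 986 bp, with signals of 106 in replicate 1 and 48.21 in replicate 2. Just outside stood H41C03.3, at 1008 bp with a pooled signal of 269.1, and mml-1, at 1009 bp with 179.8. knl-1, which encodes a kinetochore scaffold, counts as one-sided because the nearest start on the other strand lay 1017 bp away, while mdt-22 counts as divergent with such a start at 997 bp. The weakest member, near C35C5.10, had a pooled signal of 108.2, and the strongest one-sided region left out of the optimal set, near B0395.3, had 107.7.

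Members lay close to the start of their gene. The median distance from summit to start was 280.5 bp (quartiles 155.8 and 515.2), against 156 bp for divergent peaks, where the nearer of starts on both sides is taken, and 498 bp for the 3014 weaker one-sided regions. Weaker regions are those of the last 15000 by signal in the pooled list that overlap no optimal peak; their signals ran from 29.51 to 41.59. From 1 to 200 bp upstream lay 136 members (33.7%) against 21.1% of the weaker regions (odds ratio 1.90, 95% confidence bounds 1.51 and 2.39, adjusted p = 1.0e-07 by Fisher's exact test). With promoters of 500 bp the odds ratio was 1.12 (adjusted p = 0.397 by the same exact test). From 201 to 400 bp there were 140 members, then 52, 44 and 32 in the following 200 bp bins, while the weaker regions were spread almost evenly, with 552 to 635 per bin. The median pooled signal was 153 in the bin nearest the start and 135.1 to 145.5 in the others.

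**Figure D2:**
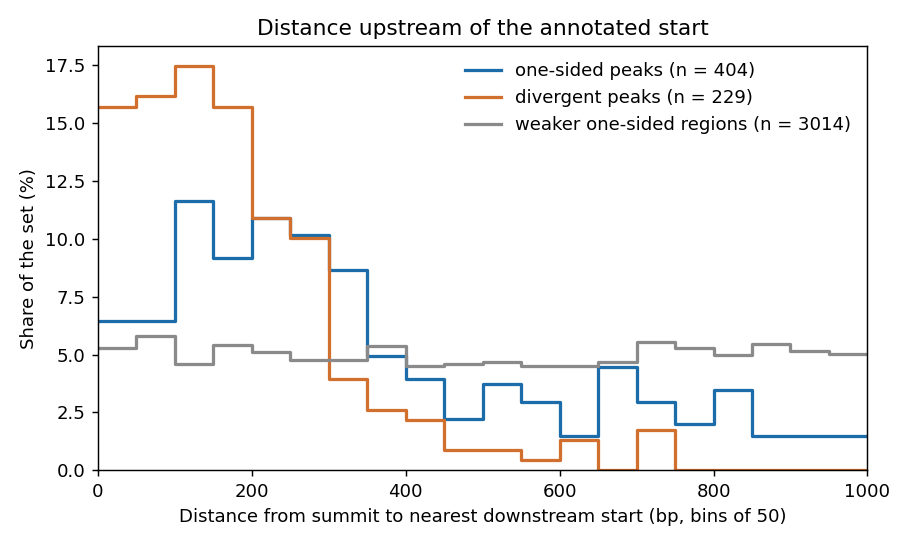
Share of each set (y axis, %) by distance from summit to the nearest downstream start (x axis, bins of 50 bp) for one-sided peaks, divergent peaks and weaker one-sided regions. One-sided peaks are most frequent between 100 and 350 bp, divergent peaks within 200 bp, and the weaker regions run nearly flat to 1000 bp.

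Most members lay between genes. In 189 (46.8%) the summit was intergenic and the next gene upstream was on the same strand, at a median of 462 bp, so that the peak stood in the gap between neighbours read in the same direction. In 127 (31.4%) the next gene upstream was on the opposite strand, at a median of 2634 bp. Another 51 summits (12.6%) lay inside the gene they were assigned to, downstream of a start farther out, and 37 (9.16%) inside another gene. The weaker one-sided regions were placed otherwise: 26.3% had a same-strand neighbour upstream, 18.6% an opposite-strand one, 24.1% lay inside the gene itself and 30.9% inside another gene.

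Each of these 4 placements differed between members and weaker regions by Fisher's exact test. The 4 comparisons are not separate, since the placements exclude each other and a lower share of 1 raises others. These comparisons, with those of distance, chromosome X and gene strand, were chosen after the data were seen, and p-values are adjusted over the 8. By that exact test the odds ratio of members over weaker regions was 2.46 with a same-strand neighbour (95% interval 1.98 to 3.06, adjusted p = 1.0e-15) and 2.00 with an opposite-strand one (1.58 to 2.53, adjusted p = 2.7e-08). It was 0.455 by the exact test inside the gene itself (0.328 to 0.619, adjusted p = 1.0e-07) and 0.226 inside another gene (0.155 to 0.320, adjusted p = 3.0e-22). Among summits within 250 bp of a start, the share inside another gene was 5.00% and its odds ratio was 0.460 (adjusted p = 0.0636 by Fisher's exact test). With coding exons left out, the odds ratios were 1.75 with a same-strand neighbour and 1.47 with an opposite-strand one. They were then 0.436 inside the gene itself and 0.4015 inside another gene. Strong peaks were found inside other genes too: W02G9.3, with replicate signals of 279.5 and 139.7, lies inside kel-8, and F17C11.4, with 289.1 and 115.7, inside the collagen gene col-153. The median pooled signal was 152.2 with an opposite-strand neighbour, 146 with a same-strand one, 137.9 inside another gene and 132.7 inside the gene itself.

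**Figure D3:**
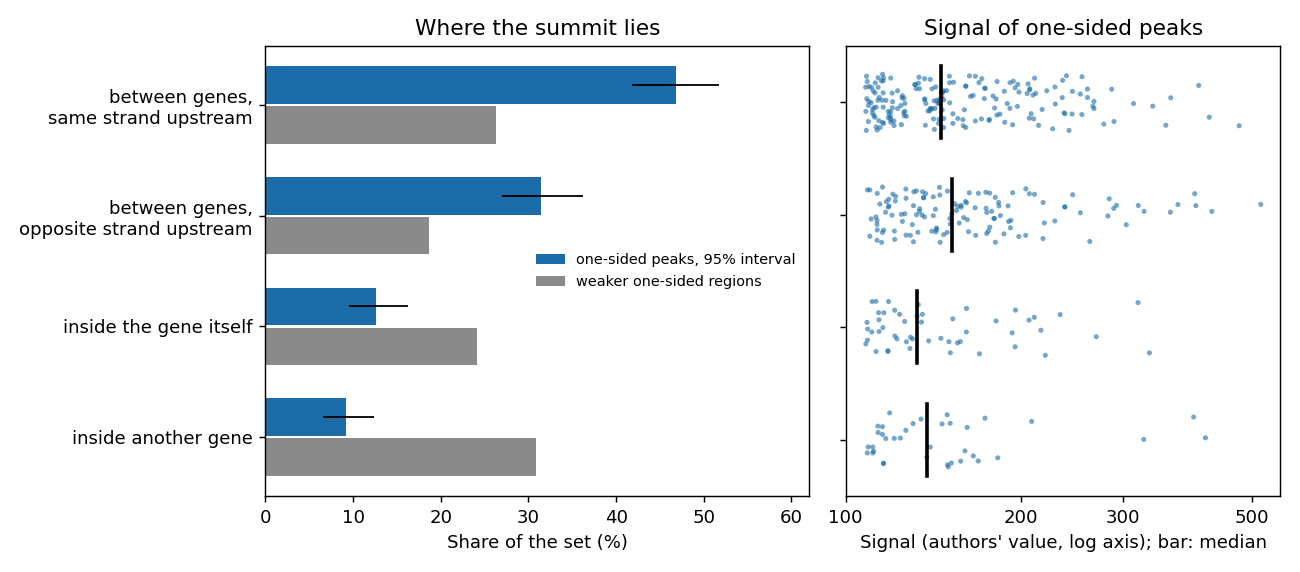
Left, share of one-sided peaks and of weaker one-sided regions (x axis, %) by where the summit lies, with exact 95% intervals for the peaks; right, pooled signal of each one-sided peak (authors' value, log axis) with the median as a bar. Peaks stood between genes in 46.8% and 31.4% of cases, and the medians of signal in the 4 placements lie between 132.7 and 152.2.

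More members had their gene on the plus strand, 231 of 404 (57.2%), than weaker regions did (50.5%; odds ratio 1.31, 95% confidence bounds 1.06 and 1.62, adjusted p = 0.0169 by Fisher's exact test). By the exact test the call was lost for members found strong in each replicate (odds ratio 1.26, adjusted p = 0.129) and for members with at least the median signal (1.28, adjusted p = 0.106). It was also lost for members in the strongest regions of replicate 2 (1.30, adjusted p = 0.0502 by the exact test), within 250 bp of the start (1.27) and with coding exons left out (1.23). A noncoding gene's start stood on the other strand within 1000 bp for 29 members (7.18%) and 5.91% of the weaker regions, so a few promoters that are one-sided for protein-coding genes have a noncoding partner.

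The base composition around member summits was raised over a narrow stretch. Mean GC content in 21 bp was 49.3% ± 0.646 (SE over 404 peaks) at 20 bp before the summit and 49.6% ± 0.651 at 20 bp toward the gene, and it was back to 36.7% at 100 bp before and 36.4% at 100 bp toward the gene. Divergent peaks reached 50.1% at the summit and then dropped to 29.7% at 140 bp before and 29.5% at 120 bp toward the nearer gene, where members stood at 34.6% and 36.0%. The weaker one-sided regions stood at 40.5% at 20 bp before the summit. Within 50 bp of the summit the median GC content was 46.5% in members, 47.5% in divergent peaks and 38.6% in weaker regions.

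**Figure D4:**
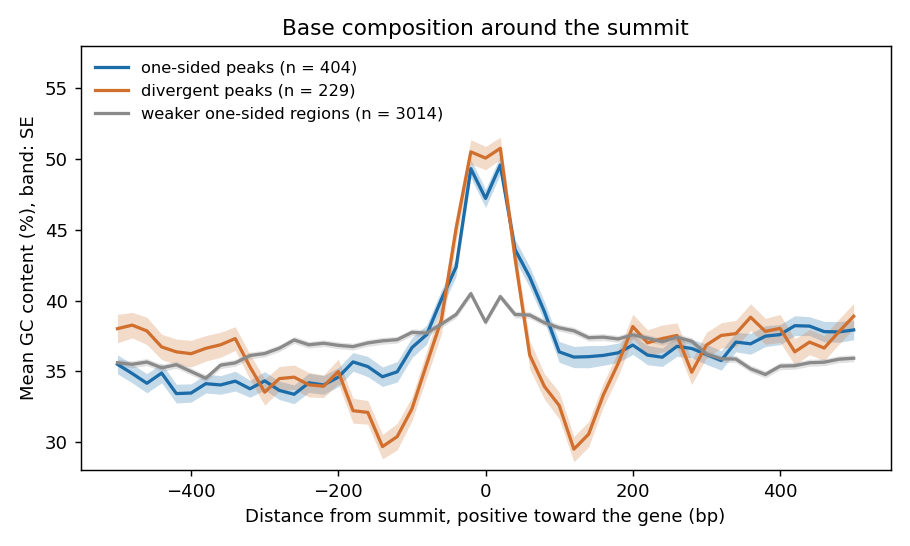
Mean GC content in 21 bp windows (y axis, %) by distance from the summit, positive toward the gene (x axis, bp), for one-sided peaks, divergent peaks and weaker one-sided regions; bands are the SE over regions. One-sided and divergent peaks share a maximum near 50% within 20 bp of the summit, and divergent peaks dip to about 30% on both sides (29.7% and 29.5%).

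Since GC content differed, motifs were compared between members and weaker one-sided regions within strata of equal GC count, with Mantel-Haenszel odds ratios and the exact conditional form of the Cochran-Mantel-Haenszel test. Of the 12 motifs, 10 passed (83.3%), but 6 of the 12 were taken up because of a known excess in these peaks, so nothing is read from that count; of the other 6, 4 passed. TAATTG lay within 50 bp of the summit in 42 members (10.4%, exact 95% interval 7.60 to 13.8) and in 6.93% of the weaker regions (odds ratio 2.68, 95% confidence bounds 1.82 and 3.94, adjusted p = 5.9e-06 by the exact test). The odds ratio fell to 1.56 without the strata (adjusted p = 0.0177 by Fisher's exact test) and to 1.51 within strata of distance to the start (adjusted p = 0.03 by the exact test), and it was 4.53 for members with at least the median signal. Of the 42 members with TAATTG, 10 had it within 10 bp of the summit, against 43 of the 209 weaker regions with it and 2 of the 17 divergent peaks with it. TAATTA, another homeodomain core, was at 3.71% and 3.75% (stratified odds ratio 2.19, 95% confidence bounds 1.22 and 3.91, adjusted p = 0.0139 by the exact test), and its odds ratio was 0.990 without the strata and 1.01 within strata of distance. Against regions below the optimal set down to rank 10000 it did not pass (odds ratio 1.77, adjusted p = 0.097 by the exact test), nor did it for members with at least the median signal (2.19) or within 250 bp of the start (1.55). An excess of TAATTG over all optimal peaks was known when the motif was taken up, so its value here is no independent support.

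The 5 GC-rich 6-mers had been picked as the most overrepresented in all optimal peaks, members included, so their excess is described without a p-value. GAGCGC was in 77 members (19.1%) and 3.02% of the weaker regions (stratified odds ratio 4.41, 95% interval 3.09 to 6.30). AGCGCG was in 16.1% and 2.19% (odds ratio 5.29, 3.57 to 7.83). ACGCGC was in 14.9% of the members (odds ratio 3.18), ACGCAG in 14.1% (3.08) and GCGCAC in 11.9% (3.37). Several of these 6-mers overlap each other in part, and 178 members (44.1%) held at least 1 of them, against 54.6% of divergent peaks and 10.6% of weaker regions. TAATTG and a GC-rich 6-mer stood together in 21 members, and TAATTG without any in another 21.

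Among the other motifs, GAGAGA was in 21.5% of members and 8.89% of weaker regions (odds ratio 2.17, 95% confidence bounds 1.62 and 2.90, adjusted p = 7.2e-07 by the exact test). With summits within 250 bp of the start the odds ratio was 1.41 (adjusted p = 0.193 by the exact test). CACGTG, the E-box bound by basic helix-loop-helix factors, was in 5.198% and 2.09% (odds ratio 2.28, adjusted p = 0.00538 by the exact test), and against regions below the optimal set down to rank 10000 its odds ratio was 1.196 (adjusted p = 0.508 by the exact test). That call was also lost in windows of 25 bp to each side (1.57, adjusted p = 0.294 by the exact test). TTTCAG, the consensus at the end of C. elegans introns, was lower in members, 5.69% against 16.03% (odds ratio 0.438, 95% confidence bounds 0.280 and 0.683, adjusted p = 1.4e-04 by the exact test). TATAAA (odds ratio 1.22, 0.747 to 2.00) and TTTTTT (1.00, 0.754 to 1.34) did not pass. In windows of 100 bp to each side TTTTTT passed at 1.36 (adjusted p = 0.00876 by the exact test), and without the strata it was at 18.1% against 29.7% (odds ratio 0.521, adjusted p = 7.7e-07 by Fisher's exact test). Median pooled signal was 167.4 in members with TAATTG, 158 in those with a GC-rich 6-mer and 139.5 in those with neither. In divergent peaks these medians were 145.2, 161.9 and 143.1.

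Few motifs separated one-sided from divergent peaks by the test. Of 17 motifs and features compared by Fisher's exact test, 2 passed (11.8%): chromosome X and GAGAGA. The motif was in 21.5% of one-sided and 12.2% of divergent peaks (odds ratio 1.97, 95% confidence bounds 1.22 and 3.25, adjusted p = 0.0312 by the exact test). That call was lost under 6 alternatives, with odds ratios of 1.57 to 2.26. TAATTG was in 10.4% and 7.42% (odds ratio 1.45, 0.783 to 2.78; adjusted p = 0.586) and GAGCGC in 19.1% and 25.3% (odds ratio 0.695, 0.463 to 1.045; adjusted p = 0.295 by the exact test). In the 247 strongest optimal peaks stood 104 of the one-sided peaks (25.7%) and 34.9% of the divergent ones (odds ratio 0.646, 0.448 to 0.933; adjusted p = 0.101 by the exact test). Among the optimal peaks in the strongest regions of replicate 2, still ranked by pooled signal, this odds ratio was 0.507 (adjusted p = 0.0103 by the exact test).

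Chromosome X held 70 one-sided peaks (17.3%) and 7 divergent ones (3.06%; odds ratio 6.63 with 95% confidence bounds 2.98 and 17.4, adjusted p = 3.4e-07 by Fisher's exact test). The odds ratio was 4.38 to 7.97 under every alternative run. Of the promoter sequence itself, X holds 3.168 of 20.68 Mb of one-sided promoter and 0.0991 of 1.719 Mb of divergent promoter. Per Mb, X held 22.1 one-sided peaks, against 19.5 over all chromosomes, and 70.6 divergent ones, against 133.2. Against weaker one-sided regions, of which 14.7% were on X, the difference did not pass (odds ratio 1.22, 0.908 to 1.61, adjusted p = 0.181 by Fisher's exact test), but it did with promoters of 1500 bp (1.34, adjusted p = 0.0379 by the same exact test). Of the divergent peaks 3.06% were on X, against 6.30% of the 270 weaker divergent regions, a difference that did not pass (odds ratio 0.470, 0.162 to 1.22, adjusted p = 0.112 by Fisher's exact test). It passed with promoters of 1500 bp (0.494, adjusted p = 0.0395 by the exact test) and with coding exons left out (0.388, adjusted p = 0.0491 by the exact test). By density, chromosome III had the most one-sided peaks, 26.7 per Mb, and chromosomes IV and V the fewest, 14.9 and 12.6.

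**Figure D5:**
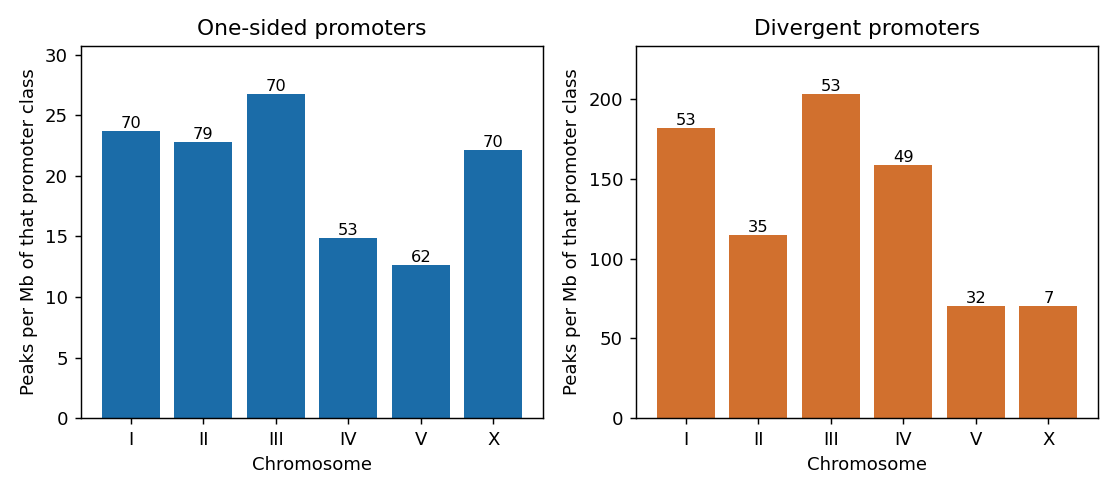
Peaks per Mb of one-sided promoter (left) and of divergent promoter (right) by chromosome, with the number of peaks above each bar. One-sided peaks on X stood at 22.1 per Mb, between those of V (12.6) and III (26.7), and divergent peaks on X (70.6) and V (70.6) were the sparsest.

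Because 1 gene lies downstream, each motif can be read in the sense or antisense direction. Among 10 motifs that are not palindromes, 3 departed from an even split by the exact binomial test (30.0%). By that exact test GAGCGC was sense in 26 and antisense in 50 members (34.2% sense, adjusted p = 0.0264), AGCGCG in 16 and 36 (30.8%, adjusted p = 0.0264), and TTTTTT in 46 and 22 (67.6%, adjusted p = 0.0264). GAGCGC and AGCGCG overlap in part and share members such as rpl-35 and tos-1, so their calls are not separate. TAATTG was sense in 23 and antisense in 19 (adjusted p = 0.72 by the exact test). In the weaker one-sided regions the sense shares were 38.2%, 40.7% and 60.6%, and none of the 10 motifs differed between members and weaker regions by Fisher's exact test (adjusted p from 0.649 to 1; at an unadjusted 0.05 the count was 0, the smallest p being 0.0914 for GAGAGA). No motif passed the binomial test when members were limited to the strongest regions of each replicate, of replicate 1 or of replicate 2.

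The members were assigned to 394 genes, 1.97% of the 19973 protein-coding genes, and 9 genes had 2 or more. Genes of the translation machinery were among the best represented of the 20 lists examined. Of 83 genes for cytosolic ribosomal proteins, the structural subunits of the ribosome, 14 had a one-sided peak (16.9%), and 28 had a divergent one. Over all 19973 protein-coding genes, 448 had a divergent one. The median signal of the 14 was 179.6, against 146.3 over all 394 genes, taking the strongest peak of each. Upstream of rpl-3 the signals were 316.4 in replicate 1 and 112.5 in replicate 2, upstream of rpl-35 they were 275.1 and 127.1, and upstream of rps-28 247.7 and 118.6. These 3 were strong in both replicates, while the weakest of the 14, rpl-38, had 105.5 in replicate 1 and 24.36 in replicate 2, where it ranked 5214. An excess of ribosomal protein genes was known before, so the count is a description.

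Translation factors had 5 of 36 genes with a one-sided peak (13.9%), 4 of them subunits of initiation factor 3. eif-3.B had signals of 175.2 and 72.77 in replicates 1 and 2, and eif-3.C 162.6 and 43.15. The first was about equally placed in both replicates, the second weaker in replicate 2 (rank 714 against 128). Of 32 aminoacyl-tRNA synthetase genes, which charge tRNAs, kars-1 alone had one (115 and 40.89). Mitochondrial ribosomal proteins had 3 of 70, led by mrpl-15 (146.9 and 56.53) and mrpl-55 (111.3 and 54.26), and the respiratory chain 2 of 53. The latter, cox-5A and cox-5B, encode subunits of cytochrome c oxidase and were strong in both replicates: 221.4 and 93.17 for cox-5A, 202.5 and 89.51 for cox-5B.

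Lists for protein folding, RNA processing and chromatin were each represented by 2 to 4 genes, at shares of 4.94 to 7.69% of the list beside 1.97% of all genes. Chaperones had 4 of 68, with the Hsp70 genes hsp-1 (177.9 and 88.99) and hsp-3 (75.45 and 64.5) in front; the latter ranked 1093 in replicate 1 and 195 in replicate 2. Splicing factors had 3 of 60, led by the SR protein genes rsp-6 (166 and 75.09) and rsp-8 (128.1 and 47.84). Proteasome subunits had 2 of 33, pbs-3 (105.4 and 50.15) and rpn-11 (96.87 and 26.96). Nuclear pore genes had 2 of 26, npp-8 (112.3 and 58.13) and npp-19 (87.18 and 22.22), and ubiquitin conjugation genes 2 of 40, usp-4 (77.74 and 14.13) and ubc-9 (74.99 and 35.62). Among these, rpn-11, npp-19 and usp-4 stood low in replicate 2, at ranks 3639, 7109 and 23571. Histone genes had 4 of 81, with his-37 (145.3 and 38.64) and the H3.3 gene his-72 (87.54 and 64.66) in front; histone genes have near-identical copies, and how the authors placed reads shared by them is not given in the sources used here. No gene of the vacuolar ATPase (20 genes), collagen (169) or insulin and starvation (20) lists had a one-sided peak. A divergent one was found for 2, 6 and 0 of them, beside 448 of all 19973 genes.

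Large families of regulators and receptors were near or below the 1.97% of all genes. Nuclear hormone receptors had 6 of 269 (2.23%), led by nhr-87 (177.2 and 57.57 in replicates 1 and 2) and nhr-21 (98.02 and 55.85). Chemoreceptors had 2 of 1364 (0.147%), srh-2 (121.9 and 53.86) and sre-23 (104.5 and 59.06). Of 97 homeobox genes only vab-15 had a one-sided peak (1.03%), and 2 had a divergent one. In the smaller list of 27 genes for touch receptor neurons and their fate regulators, vab-15 was also the only one. That share, 3.70%, lay above the 1.97% but rests on this 1 gene. The vab-15 peak, 405 bp from the start, had signals of 81.21 in replicate 1 and 39.68 in replicate 2, at ranks 883 and 922. It is in the weaker part of the members in both replicates.

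The lists for larval patterning and timing are short, and their shares lay above the 1.97% of all genes. With 11 genes in each, a single gene with a peak already gives 9.09%, so lying above says little. These lists, like the others, were chosen with earlier results of these data known, so the shares are a description. Of 11 Hox genes and cofactors 1 had a one-sided peak (9.09%): mab-5, which patterns the posterior body, with a summit 824 bp from the start with signals of 82.12 and 53.81. Of 11 heterochronic genes, which time larval development, 3 had one (27.3%). That of puf-9, whose product is an RNA-binding protein of the Pumilio family, was strong in both replicates, with 272.3 and 116.4. lin-28, another RNA-binding protein of that pathway, had 74.06 and 52.72, and lin-66 had 58.93 and 59.39. The last 2 stood higher in replicate 2 than in replicate 1, at ranks 390 and 258 against 1139 and 2211.

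The remaining genes among the 20 strongest members have varied roles. mppb-1, for a subunit of the peptidase that trims imported mitochondrial proteins, had signals of 286.1 in replicate 1 and 119.3 in replicate 2. mak-2, a MAPK-activated protein kinase, had 258.1 and 100.8, and sec-61.G, the gamma subunit of the Sec61 translocon, had 248.9 and 114.5. wwp-1, a HECT-type ubiquitin ligase, had 232.1 and 119, and egl-30, the Gq alpha subunit that acts in neurotransmission, had 195.3 and 129.6. K12H4.5 (304.4 and 128), tos-1 (203.5 and 130.3), T28B11.1 (222.4 and 107.8), pinn-1, a peptidyl-prolyl isomerase (239.1 and 86.81), and drap-1 (227.3 and 95.39) complete the 20.

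The 5 strongest peaks with TAATTG within 10 bp of the summit were those of tub-2 and W02G9.3, given above, C03A3.2, citk-1 and crn-1. C03A3.2 had signals of 163 and 96.48 in replicates 1 and 2. citk-1, which encodes a citron-type kinase, had 143.8 and 56.52, and crn-1, a nuclease gene named for its part in cell death, had 139.6 and 38.33. Of these 5, crn-1 alone was outside the 990 strongest regions of a replicate, with rank 1042 in replicate 2. rga-4 and F48F7.5, whose windows are shown, rank lower. rga-4 had 116.2 and 61.49 at the peak 462 bp from its start and 65.91 and 36.73 at a second one 661 bp away. F48F7.5 likewise had 2 peaks, with 100.9 and 41.71 at 734 bp, where TAATTG lies, and 82.66 and 42.33 at 117 bp, where it does not. The second peak of rga-4 was outside the 990 strongest regions of both replicates, and the other 3 were inside them in both.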

How the data were processed

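The authors deposited lists of 30000 regions for each of 2 replicates and for the pooled data, and an optimal set by the irreproducible discovery rate (IDR) from both replicates. Alignments with a control alignment went into them, per the labels' notes beside the files. Per deposited region there is a signal value from the authors, the -log10 of a q-value, and an offset that places the summit. Which aligner, caller and thresholds made them is not given in the sources used here, nor what the signal is relative to, so signals were compared within a list. That deposited -log10 q-value was at its ceiling for 234 of the 404 members and was not used further. The ce10 lists were not used.

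Transcript starts came from Ensembl release 115 (WBcel235, the ce11 assembly), sequence from the RefSeq genome of that assembly. A peak's gene is the one with the nearest start downstream. Shares of peaks were compared with Fisher's exact test, motifs against weaker regions with the exact conditional Cochran-Mantel-Haenszel test over GC counts (402 of 404 members in used strata), orientation with exact binomial tests, each two-sided with Benjamini-Hochberg adjustment (Python 3.11.15, SciPy 1.17.1) and a threshold of 0.05. The procedures were tested on simulated data. The named genes are those of the 20 strongest members, the 2 strongest of each gene list (all members of the lists for touch receptor neurons, Hox and heterochronic genes), the 5 strongest with TAATTG within 10 bp (rga-4 and F48F7.5 were added after their values were seen) and those nearest the thresholds of the rule. Members, gene lists and motifs were chosen with earlier results of these data known.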

Additional observations from a re-analysis of the deposited data

How the results depend on the processing

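Alternatives changed the promoter length, the starts, the peak set, the motif window, the weaker regions and the strata; summits within 250 bp and the removal of coding exons were added after the data were seen. The share of promoter peaks that are one-sided, 63.8%, was 69.42% with promoters of 500 bp, 59.86% with 1500 bp and 50.85% within 250 bp; the number of members, 404, was 212 at or above the median signal, 226 in the strongest regions of both replicates and 180 within 250 bp, and 275 to 335 without either replicate (share 61.47 to 65.32%). Of 17 features compared with divergent peaks, 2 passed, and 1 did with 500 bp, 1500 bp, outermost gene starts, signal at or above the median, the 25 bp window and within 250 bp; without either replicate it was 2 to 3. Of 12 motifs against weaker regions 7 to 11 passed in the alternatives run, a count that includes the 6 taken up for their known excess. Of 10 orientation tests, 3 passed, 1 did with 1500 bp, at or above the median and within 250 bp, and 0 did in the strongest regions of both replicates, without replicate 1, without replicate 2 and with the 25 bp window. The share of members in the strongest regions of both replicates was 30.69% with the upper 50% of those regions, where the difference from divergent peaks passed Fisher's exact test, and 82.18% at 2000, where its direction turned. The causes were not tested.

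Apart from TAATTA, directions turned only for values that did not pass in the main setting. TAATTA against weaker regions had passed there, with an odds ratio of 2.19. Some turned values of TTTTTT passed against weaker regions. The adjusted p was 7.7e-07 by Fisher's exact test without GC strata. With distance strata it was 6.2e-08 by the exact conditional Cochran-Mantel-Haenszel test. The odds ratio of TTTTTT against weaker regions, 1.00, was 0.892 (500 bp), 0.979 (outermost starts), 0.959 (median signal), 0.870 (both replicates), 0.801 (25 bp window), 0.919 (within 250 bp), 0.849 (no coding exons), 0.916 to 0.982 without either replicate, 0.521 without GC strata and 0.489 with distance strata, while the 100 bp window gave 1.36, which passed; TATAAA was 0.941 (outermost starts), 0.637 (no GC strata) and 0.666 (distance strata), and TAATTA 0.990 (no GC strata). Against divergent peaks TTTTTT, 1.18, was 0.856 (500 bp), 0.553 (100 bp window, adjusted p = 0.00271 by Fisher's exact test) and 0.959 (within 250 bp), and membership in both replicates, 0.900, was 1.29 (500 bp), 1.03 (outermost starts) and 1.40 (within 250 bp). The odds ratio of chromosome X against weaker regions, 1.22, was 0.907 (500 bp), 0.920 (median signal) and 0.804 (within 250 bp). TAATTG was sense in 47.62% (25 bp window) and 44.44% (100 bp window) of its peaks. No paired analysis was possible because there is 1 group. Depth is unknown, so what it limits could not be given.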

Other observations

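A longer GC-rich sequence, ACGCGCTC, was picked out after the values of the members had been seen, so it is given without a test. Counted on either strand in windows of 50 bp to each side of the summit, it was in 21 of 404 one-sided peaks (5.198%), 13 of 229 divergent peaks (5.68%) and 9 of 3014 weaker one-sided regions (0.299%). Among the one-sided peaks it was sense in 15 and antisense in 6. The other sets leaned the same way, with 9 and 4 in divergent peaks and 7 and 2 in weaker one-sided regions. Of the 20 strongest one-sided peaks, 3 held it. The median signal, 162.7 over the 21 peaks, was above the 145.6 of all one-sided peaks.

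TAATTG was unevenly spread over distance, as a description without a test. It was in 18 of 136 one-sided peaks within 200 bp of the start (13.2%) and in 9 of 44 at 601 to 800 bp (20.5%). In the other bins it was in 11 of 140 at 201 to 400 bp (7.86%), 3 of 52 at 401 to 600 bp (5.77%) and 1 of 32 beyond 800 bp (3.12%). The weaker regions held it at 4.98 to 8.15% in every bin. GAGCGC was in 28.9% of the 52 one-sided peaks at 401 to 600 bp, in 9.38% of those beyond 800 bp and in 11.4 to 20.7% in the other bins. Inside other genes TAATTG was in 7 of 37 one-sided peaks (18.9%), against 9.45 to 9.80% in the other placements. A tRNA gene lay within 500 bp of 5 one-sided peaks (1.24%) and of 1 divergent peak (odds ratio 2.85, 95% confidence bounds 0.317 and 135.7, adjusted p = 0.608 by Fisher's exact test).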
